A study of Drosophila melanogaster with 14 samples.

Results

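The genes for the protein subunits of the mitochondrial ribosome were examined in the heads of fmn and control flies. A gene was a member when its symbol in the array's annotation starts with mRpL (large subunit) or mRpS (small subunit), and each gene was represented by its brightest probe set, the group of probes that reports 1 transcript. The rule found 71 probe sets of 69 genes, 44 with an mRpL and 25 with an mRpS symbol, among 18769 probe sets that are not controls. Genes are counted below as large or small subunit by this symbol, and the place of each protein in the particle was not checked. The rule uses names, and signals only to pick 1 probe set for a gene that has more. All 69 genes passed the filter on low signals that left 8641 probe sets for testing.

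The fmn (fumin) flies lack a working dopamine transporter (DAT), which clears released dopamine from the synapse, and are known for short sleep. They had been backcrossed over 5 generations to the control strain w1118, which carries the white mutation, and the chromosome region around DAT was described as not fully exchanged. The 7 fmn arrays and the 7 control arrays each sampled every 4th hour, 1 array per time, from ZT 0 to ZT 24, where ZT (zeitgeber time) counts hours from lights on and lights went off at ZT 12. Each array held RNA from 1 pool of heads of both sexes, while the study's general methods speak of adult males a few days after eclosion, so the age that applies to the pools of both sexes is not certain. With 1 array per genotype and time, p-values of the genotype difference measure the spread between pools taken at different times of day. Those of a rhythm measure the scatter of pools around a fitted daily curve. With time as a block, the spread is what is left after the mean of each time is removed.

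Mitochondria carry their own small genome, which encodes a few subunits of the respiratory chain and the RNAs of a ribosome of bacterial ancestry. In animals all protein subunits of that ribosome are encoded in the nucleus, made in the cytosol and imported. Many have a bacterial counterpart (here 43 of the 69 genes), while others were added in mitochondria (here 26), and the finished particle makes membrane proteins of the machinery that produces ATP. Their genes lie scattered over the genome, here 12 on chromosome arm 2L, 10 on 2R, 17 on 3L, 19 on 3R and 11 on X.

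All members were measured well above the dim end of the array. The mean signal per gene, in the linear units of the MAS5 algorithm, ran from 378 to 4459 in fmn heads (median 839) and from 398 to 4849 in control heads (median 872). The lowest signal of any member on any array was 335, for mRpL39. mRpS5, a small subunit protein with a bacterial counterpart, was the brightest with a signal of 4114 to 4831 in fmn and 4586 to 5055 in control heads. Signals of different genes depend on their probes as well as on RNA, so these levels do not rank the genes by transcript number.

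A few facts about the arrays bear on the results. The signal of DAT, the label check, was 1.43 to 14.5 on the fmn arrays and 471 to 619 on the control arrays, at least 5.55-fold lower in fmn against a floor of 100. The array's 75th percentile, on which the log2 values were centred, was 566 to 588 in fmn and 570 to 578 in control. Markers of neurons (4 of 4), glia (3 of 3) and photoreceptors (2 of 2) reached a signal of 100 on all 14 arrays. Transcripts of other organs stood out on 3 arrays: fmn ZT 4 and control ZT 0 had 6 of 8 testis markers and 6 of 8 accessory gland markers at a signal of 100 or more, and fmn ZT 8 had 6 of 11 ovary markers, against 0 of each on the other 11 arrays. The summed signal of 13 gut markers was 4051 at fmn ZT 4, 11881 at fmn ZT 8 and 5798 at control ZT 0, against 249 to 336 on the other 11 arrays. The counts, medians and calls that were recomputed without them are given in both forms, while values of single time points are given as measured. The neuronal marker sum was 6348 at fmn ZT 12 and 8299 to 8638 on the other 6 fmn arrays, against 6505 to 7283 in control, so fmn ZT 12 stood apart from its group. In pooled heads, a change in the cells sampled and a change of RNA per cell cannot be told apart.

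The members' medians varied together over the day, in both genotypes and by a small amount. Their transcripts were low in the middle of the light phase (ZT 4 and ZT 8) and highest at ZT 20, 8 h after lights off. In fmn heads the median deviation of the 69 genes from each gene's own mean was 0.00 at ZT 0, -0.11 at ZT 4, -0.12 at ZT 8, 0.03 at ZT 12, 0.00 at ZT 16, 0.14 at ZT 20 and 0.06 at ZT 24, on the log2 scale. In control heads it was 0.05, -0.07, -0.06, -0.06, 0.03, 0.09 and 0.03 at the same times. The low stretch ended by ZT 12 in fmn, on the array whose neuronal marker sum stood apart, and lasted through ZT 12 in control, and both curves reached their highest point at ZT 20.

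**Figure D1:**
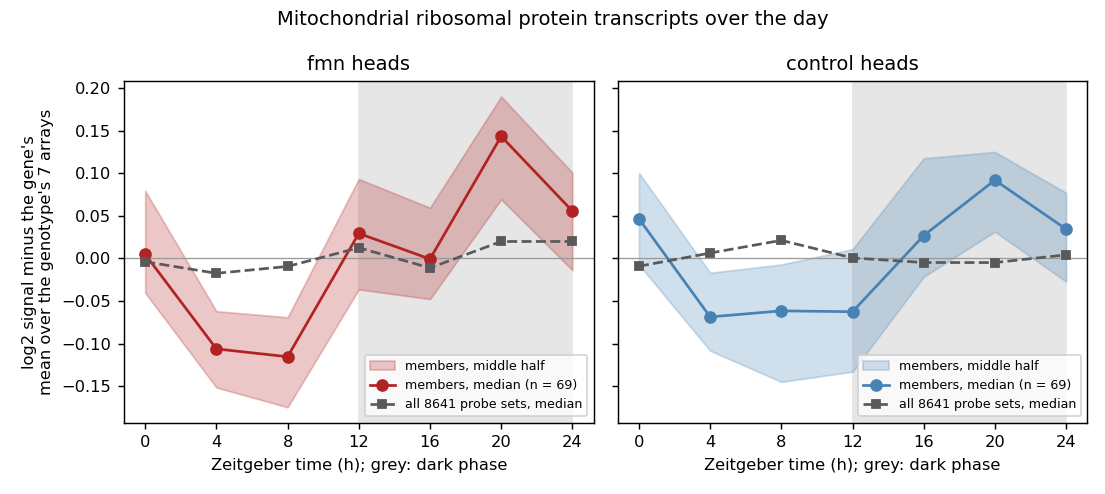
Median log2 deviation of the 69 members from each gene's mean over the 7 arrays of its genotype (y axis) against zeitgeber time in hours (x axis), in fmn (left) and control heads (right). The band runs between the quartiles of the members and the dashed line is the median of all 8641 probe sets, and the members' medians are highest at ZT 20 in both panels, at 0.14 in fmn and 0.09 in control.

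The same deviations were also counted by gene. At ZT 20, 62 of 69 members were above their own mean in fmn and 60 in control, where 56% and 48.4% of all probe sets were. At ZT 4 only 6 members were above it in fmn and 14 in control (43.3% and 52.9% of all probe sets). At ZT 8 the counts were 9 in fmn and 17 in control (47.5% and 57.3% of all probe sets). By subunit, 42 of 44 large and 20 of 25 small subunit genes were above their mean at ZT 20 in fmn, and 43 and 17 in control. The median deviation at ZT 20 was 0.15 for large and 0.13 for small subunit genes in fmn, and 0.10 for large and 0.027 for small subunit genes in control. In control the small subunit genes were thus not highest at ZT 20. Their median was 0.033 at ZT 24 and 0.047 at ZT 0, where 20 of 25 were above their mean. Control ZT 0 is 1 of the 3 arrays carrying other-organ transcripts. From its lowest to its highest time point the members' median spanned 0.26 in fmn and 0.16 in control on the log2 scale, against 0.04 and 0.03 for the median of all 8641 probe sets. Without the 3 arrays carrying other-organ transcripts the span was 0.14 in fmn and 0.16 in control, so the fmn curve was shallower without its arrays of ZT 4 and ZT 8, and the part of the other-organ transcripts in it was not tested. Without the array of fmn ZT 12 it was 0.26 in fmn. Without the array of ZT 20 it was 0.17 in fmn and 0.11 in control.

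ZT 20 and ZT 8, which lie 12 h apart and were picked with the curve known, were also set against each other gene by gene, as a description. The centred log2 signal was higher at ZT 20 for 64 of 69 members in fmn, where 54.5% of all probe sets were. In control it was higher for 58 of 69, where 44.5% were. The median log2 difference, ZT 20 minus ZT 8, was 0.25 in fmn and 0.13 in control, against 0.03 and -0.03 for all probe sets. In fmn the ZT 8 side of this comparison is 1 of the 3 arrays carrying other-organ transcripts, and in control neither side is. mRpS11, mRpS30 and mRpS5, all with an mRpS symbol, were not higher at ZT 20 in either genotype on this centred scale. For mRpS11 in control the centred difference was close to none (-0.0005). Before centring its control signal was 1284 at ZT 8 and 1300 at ZT 20. ZT 24 and ZT 0 are the same phase on successive days, and for no member was one of them 25% or more above the other in fmn (9.51% of all probe sets were) or in control (10.5%), where ZT 0 is 1 of the 3 arrays. The members' median difference, ZT 24 minus ZT 0, was 0.04 in fmn and -0.03 in control, against 0.02 in both for all probe sets. The span over the day was set by other arrays, ZT 8 and ZT 20 in fmn and ZT 4 and ZT 20 in control. With 1 such difference per genotype there is no spread for it, so the span was not tested against it.

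**Figure D2:**
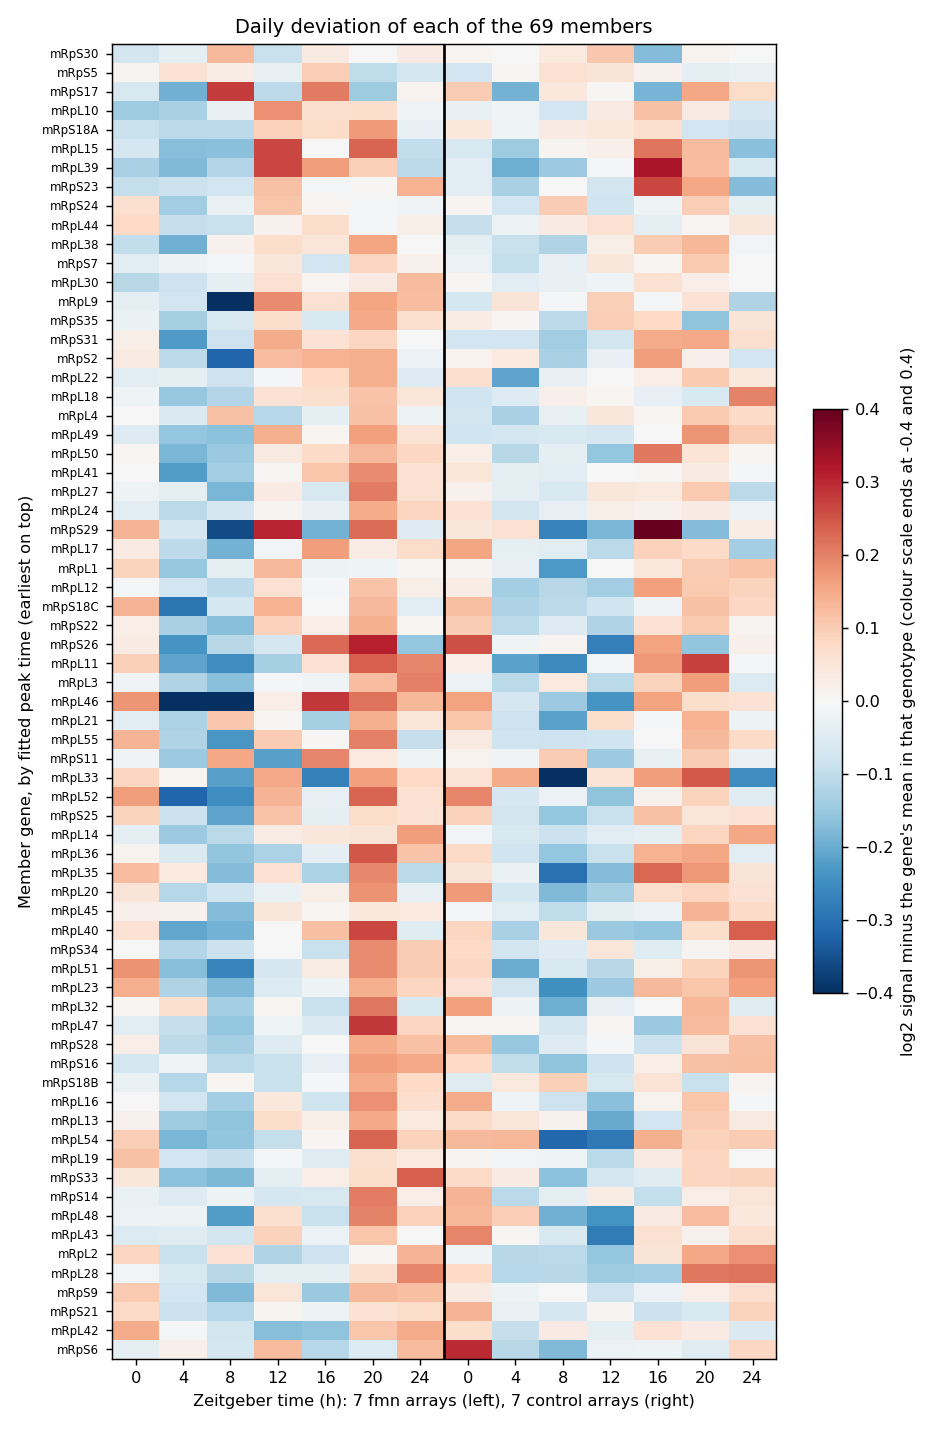
Log2 deviation of each member from its own mean within a genotype (colour, red higher and blue lower) for the 7 fmn arrays (left) and the 7 control arrays (right) by zeitgeber time in hours, with genes ordered by fitted peak time. Blue prevails at ZT 4 and ZT 8 and red at ZT 20. At ZT 20, 62 of 69 members in fmn and 60 in control were above their mean (56% and 48.4% of all probe sets).

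A curve with a period of 24 h was fitted to each gene, with its amplitude (distance from mean level to peak, log2) and peak time. Fitted to both genotypes together, 63 of 69 members (91.3%) peaked between ZT 16 and ZT 24, as did 35.7% of all probe sets tested. In fmn alone it was 61 members (40.1% of all probe sets) and in control alone 56 (31.8%). The median of the members' peak times was 19.3 h. Peaks of all probe sets were spread around the clock, with 12.4% to 19.6% in each 4 h window, so they have no middle to compare. The peaks in fmn and control lay less than 4 h apart for 51 members (56.5% of all probe sets). The 6 members that peaked elsewhere were mRpL10, mRpL15, mRpS17, mRpS18A, mRpS30 and mRpS5, and of these mRpL10, mRpL15 and mRpS18A peaked at 15.3, 16.0 (just before ZT 16) and 15.6 h. All members were read from the same 14 arrays, so their peak times are not independent of each other, and the peak of a gene with a small amplitude is poorly determined.

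**Figure D3:**
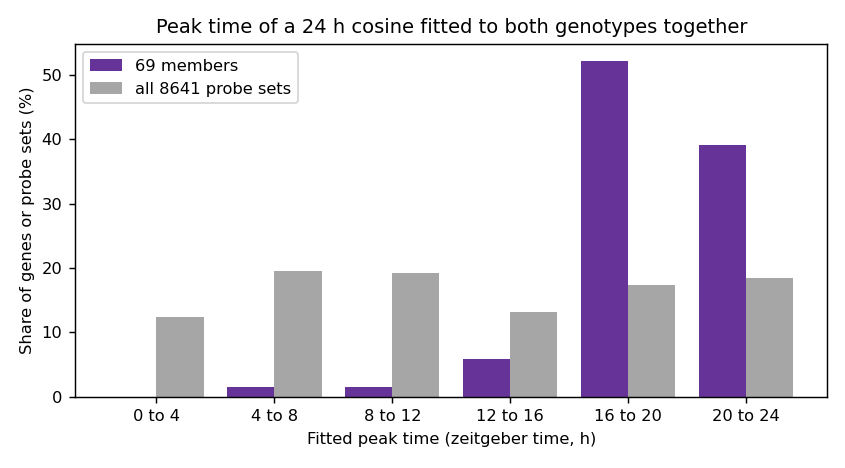
Share of the 69 members and of all 8641 probe sets (y axis, %) whose fitted 24 h curve peaks in each 4 h window of zeitgeber time (x axis), both genotypes fitted together. Of the members, 52.2% peak between ZT 16 and ZT 20 and 39.1% between ZT 20 and ZT 24, against 17.3% and 18.4% of all probe sets.

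The late peak held in each alternative run for arrays and scaling. The count was 60 to 64 of 69 when each array was left out in turn, 62 on the deposited values without further scaling (33.8% of all probe sets) and 63 after quantile normalization (37.4%). Without the 3 arrays carrying other-organ transcripts it was 57 (34.1%). Centring each array on its median gave 68, but this scaling also moved 64.6% of all probe sets into the window. Under it the median of all probe sets itself spanned 0.39 in fmn and 0.31 in control, so that only the difference between members and the rest can be read.

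Few single genes had a rhythm that passed the test, and the amplitudes were small (median 0.11, against 0.08 for all probe sets). With both genotypes fitted together, limma called a 24 h rhythm for 16 of 69 members (23.2%, against 14.3% of all probe sets), 13 of 44 in the large and 3 of 25 in the small subunit. The median amplitude was 0.11 for large and 0.08 for small subunit genes, and 0.13 for genes added in mitochondria against 0.10 for those with a bacterial counterpart. Without the 3 arrays carrying other-organ transcripts 3 members were called (mRpL11, mRpL23 and mRpL39), which is 4.35% of members against 7.71% of all probe sets, so the larger share among members was not seen there. Without the single arrays of fmn ZT 20, control ZT 8, control ZT 20 and fmn ZT 4 the count was 8, 9, 9 and 10, against 11.4%, 13.3%, 11.9% and 12.4% of all probe sets, and without fmn ZT 12 it was 21 (30.4%, against 14.6%). Within 1 genotype, no member passed in fmn (1.87% of all probe sets did). At an unadjusted p under 0.05 there were 13 members in fmn (18.8%), against 16.2% of all probe sets. Only mRpL11 passed in control (adjusted p = 0.0409 by limma, against 2.74% of all probe sets), and none did when any 1 control array was left out. At an unadjusted p under 0.05 there were 17 members in control (24.6%), against 17.1% of all probe sets.

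mRpL11, a protein at the base of the stalk where translation factors bind, had the clearest rhythm. Its signal over the 7 times, from ZT 0 to ZT 24, was 511, 414, 406, 432, 503, 558 and 532 in fmn and 510, 431, 417, 503, 570, 609 and 496 in control. Both genotypes were lowest at ZT 8 and highest at ZT 20. The amplitude was 0.26 ± 0.03 (SE, 14 arrays), a 1.43-fold distance from trough to peak, with a peak at 19.2 h (adjusted p = 0.000322 by limma). It passed the test in every alternative run, with an adjusted p of 0.0245 at most.

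mRpL39, a subunit of the large particle with no bacterial counterpart, peaked earlier, at 16.1 h. Its signal was 345, 335, 351, 450, 427, 399 and 341 over the 7 times in fmn and 410, 369, 380, 425, 534, 463 and 403 in control. The highest sample was thus ZT 12 in fmn and ZT 16 in control, and the amplitude was 0.22 ± 0.03 (adjusted p = 0.0016 by limma).

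mRpL23, which in bacteria lies at the exit of the tunnel for the new protein chain, had a signal of 1368, 1143, 1106, 1181, 1232, 1349 and 1278 in fmn and 1392, 1271, 1122, 1219, 1478, 1455 and 1492 in control. The lowest array was ZT 8 in both genotypes. The amplitude was 0.18 ± 0.03 with a peak at 20.5 h (adjusted p = 0.00219 by limma).

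mRpL46, another subunit added in mitochondria, had the largest amplitude of all members, and it was wider in fmn (0.39) than in control (0.17). The signal was 665, 441, 446, 595, 723, 677 and 628 in fmn and 660, 563, 530, 506, 666, 624 and 612 in control. The 2 lowest fmn values came from the arrays of ZT 4 and ZT 8, which carried transcripts of other organs. The common amplitude was 0.27 ± 0.05 (adjusted p = 0.0101 by limma), and without those 2 arrays and control ZT 0 it was 0.16 and was not called (adjusted p = 0.131).

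mRpL51, added in mitochondria, gave 843, 664, 625, 704, 766, 839 and 777 in fmn and 796, 655, 717, 702, 772, 805 and 846 in control, with an amplitude of 0.18 and a peak at 20.4 h (adjusted p = 0.00797 by limma). mRpL36, the counterpart of one of the smallest ribosomal proteins of bacteria, gave 712, 680, 638, 641, 693, 828 and 742 in fmn and 731, 656, 619, 657, 770, 777 and 670 in control, with an amplitude of 0.16 and a peak at 20.0 h (adjusted p = 0.00969). mRpL54, also added in mitochondria, gave 614, 507, 518, 532, 582, 666 and 595 in fmn and 603, 605, 441, 456, 614, 592 and 590 in control, with an amplitude of 0.20 and a peak at 21.0 h (adjusted p = 0.00979). In all 3 genes both genotypes were lower at ZT 8 than at ZT 20, and none of the 3 was called without the 3 arrays carrying other-organ transcripts (adjusted p of 0.0785 to 0.129).

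mRpL20, the member with the greatest genotype difference, had an amplitude of 0.13 with a peak at 20.1 h (adjusted p = 0.0216). The other 8 called members had amplitudes of 0.12 to 0.18. They were mRpL12, the stalk protein that recruits elongation factors, mRpL15, mRpL28, mRpL38, mRpL50, mRpS16, mRpS31 and mRpS33.

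**Figure D4:**
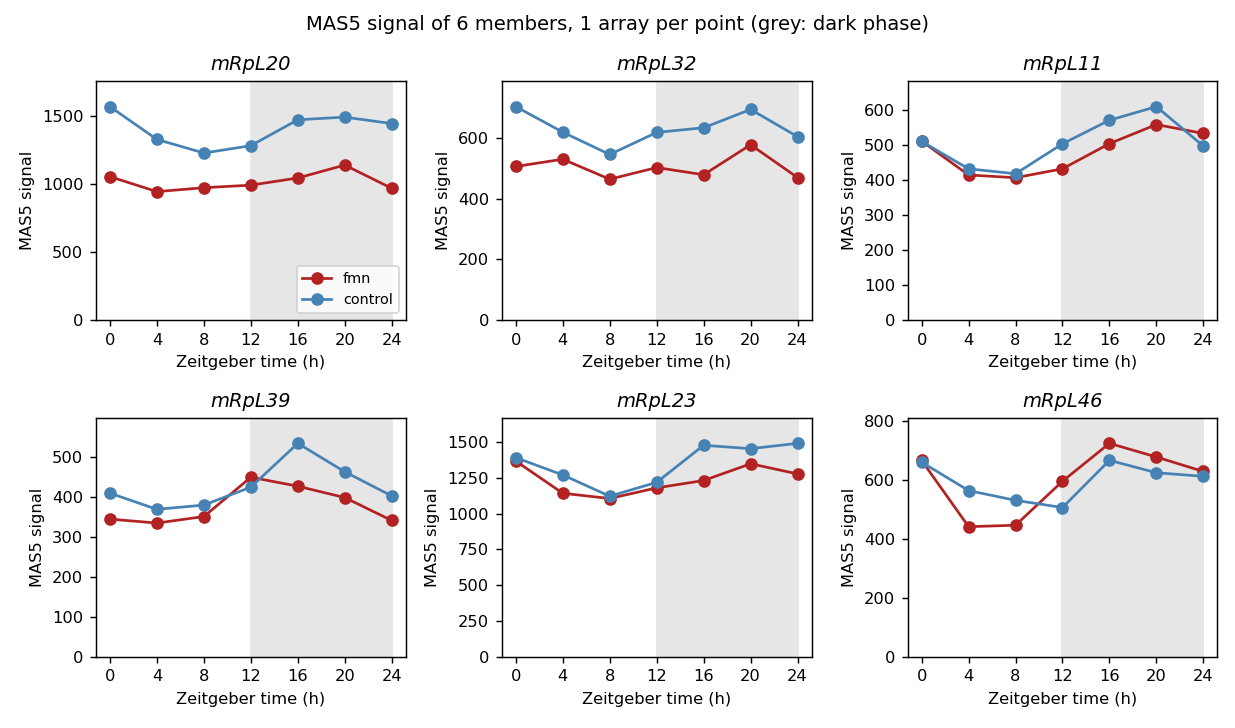
MAS5 signal (y axis, linear, from 0) of 6 members against zeitgeber time in hours (x axis), 1 array per point, fmn in red and control in blue. mRpL20 and mRpL32 are lower in fmn at all 7 times, while mRpL11, mRpL39, mRpL23 and mRpL46 vary over the day, with mRpL11 highest at ZT 20 in both genotypes at 558 in fmn and 609 in control.

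No member's rhythm was shown to differ between the genotypes. In the test of the difference itself, 0 members and 0 of all probe sets (0%) passed, with a smallest adjusted p of 0.998 among members by limma. At an unadjusted p under 0.05 there were 4 members and 349 of 8641 probe sets. The 4 were mRpL40, mRpL41, mRpL42 and mRpL46, named after their values were seen, and of these mRpL46 and mRpL41 had amplitudes of 0.39 and 0.19 in fmn and 0.17 and 0.04 in control. These p-values do not show that the rhythms were alike.

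Averaged over the day, 2 members were changed in fmn against control, both lower: mRpL20 and mRpL32. Changed means an adjusted p under 0.05 by limma and a mean in one genotype at least 25% above that in the other. Of all probe sets, 3.62% were lower and 3.69% higher by this rule, so the 2 lower members (2.9%) and 0 higher ones are no larger a share than the array as a whole. Both encode large subunit proteins with a bacterial counterpart.

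mRpL20, which in bacteria binds ribosomal RNA early in the building of the large subunit, gave a signal of 1055, 945, 974, 992, 1045, 1140 and 969 in fmn and 1570, 1328, 1229, 1283, 1473, 1492 and 1445 in control at the 7 times. Every fmn array was below every control array, the only member of which this was true (1 of 69), while 3.09% of all probe sets showed it. The mean was 1017 ± 67.5 in fmn and 1403 ± 124 in control (SD, n = 7 each), a log2 difference of -0.48 ± 0.06 (SE, adjusted p = 0.000102 by limma). The difference was between -0.51 and -0.41 in the alternatives run and passed in each.

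mRpL32, whose precursor is cut by a mitochondrial protease in yeast and mice before the ribosome is completed, gave 506, 530, 464, 502, 479, 577 and 470 in fmn and 703, 619, 545, 618, 634, 694 and 604 in control. It was lower in fmn at all 7 times, though fmn ZT 20 exceeded control ZT 8. The log2 difference was -0.34 ± 0.06 (adjusted p = 0.00201 by limma), just past the 25% threshold. It came to -0.31, -0.32 and -0.32, short of that threshold, without control ZT 0, control ZT 20 or fmn ZT 8, and to -0.30 without the 3 arrays carrying other-organ transcripts, each with an adjusted p under 0.05.

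Each of these 2 genes was measured by 1 probe set. Of the 10 genes on either side of mRpL20 on chromosome arm 3L, 6 were tested, and past the 25% threshold 0 were lower and 1 higher in fmn. This was the adjacent Icmt, with a mean signal of 273 in fmn and 141 in control, a log2 difference of 0.94 (adjusted p = 2.12e-07 by limma), named after its values were seen. Around mRpL32 on 3R, 10 genes were tested, with 0 lower and 1 higher past that threshold, CG1544 (0.52). Over all genes tested 3.18% were lower and 3.36% higher. At any fold, 2 neighbours of mRpL20 were lower and 3 higher, and 3 neighbours of mRpL32 were lower and 1 higher, against 10.7% and 6.87% of all genes. Of the members, mRpL41 alone lay within 250 genes of DAT on 2R, and it was not called (log2 difference -0.06, adjusted p = 0.512 by limma).

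The other members differed little between the genotypes. Of all members, including mRpL20 and mRpL32, the direction leaned to lower in fmn: 50 of 69 (72.5%) were below control, where 57.2% of all probe sets were, and the median log2 difference was -0.06, against -0.02 for all probe sets. It was -0.06 for the large and -0.05 for the small subunit. Without the 3 arrays carrying other-organ transcripts the median difference of members was 0.00, and 34 of 69 (49.3%) were below control, against 57.0% of all probe sets, so there was no lean to lower. Across the day the members' median difference was -0.09, -0.11, -0.11, 0.01, -0.11, 0.01 and -0.05 from ZT 0 to ZT 24, and 55, 56, 57, 32, 52, 33 and 43 of 69 members were lower in fmn. Of all probe sets, 54.4%, 59.1%, 58.2%, 54.4%, 55.5%, 52% and 51.4% were lower at these times. Their median differences were -0.02, -0.05, -0.04, -0.02, -0.03, -0.01 and -0.01. At ZT 12, where the fmn array stood apart in its neuronal markers, and at ZT 20 the members' median was close to 0.

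At any fold, 7 members were lower in fmn at an adjusted p under 0.05 (11.4% of all probe sets were). Besides mRpL20 and mRpL32 these were mRpS22, mRpL44, mRpL10, mRpS7 and mRpS5, with log2 differences of -0.21, -0.17, -0.16, -0.15 and -0.14. When the 3 arrays carrying other-organ transcripts were left out 4 members stayed called (mRpL20, mRpL32, mRpL44 and mRpS5, 5.8% of members against 5.71% of all probe sets), and mRpS22 came to -0.13 (adjusted p = 0.139). mRpS22 also missed the test with median centring (adjusted p = 0.223) and with no filter on low signals (0.08). mRpL10 anchors the stalk, mRpS7 sits in the head of the small subunit, and mRpS22 and mRpL44 were added in mitochondria. With the time of day as a block, 12 members passed at any fold (15.0% of all probe sets) and the same 2 past the 25% threshold (3.97%), the added ones being mRpL23, mRpL28, mRpL39, mRpL49 and mRpS31. At an unadjusted p under 0.05 in the fit without a block there were 13 members (18.8%), against 32.2% of all probe sets.

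After mRpL20 and mRpL32, the largest negative log2 differences were those of mRpS22 (-0.21 ± 0.06), mRpL39 (-0.19 ± 0.09), mRpL28 (-0.19 ± 0.07) and mRpS31 (-0.18 ± 0.06). The lowest, median and highest signals of mRpS22 were 629, 714 and 764 in fmn and 741, 802 and 866 in control, so the genotypes overlapped. mRpL28 was lower in fmn at all 7 times, with 2111, 2222 and 2515 in fmn and 2307, 2336 and 2948 in control. mRpS31, of the small subunit and added in mitochondria, had 1074, 1272 and 1375 in fmn and 1258, 1334 and 1559 in control. mRpL39, mRpL28 and mRpS31 missed the test (adjusted p = 0.155 for mRpL39, 0.0829 for mRpL28 and 0.0706 for mRpS31) and passed with the time of day as a block (0.0277, 0.0136 and 0.0322) or with a 24 h curve as covariate. Without the fmn array of ZT 24 mRpL28 passed (0.0475), and without that of ZT 12 mRpS31 did (0.0422).

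**Figure D5:**
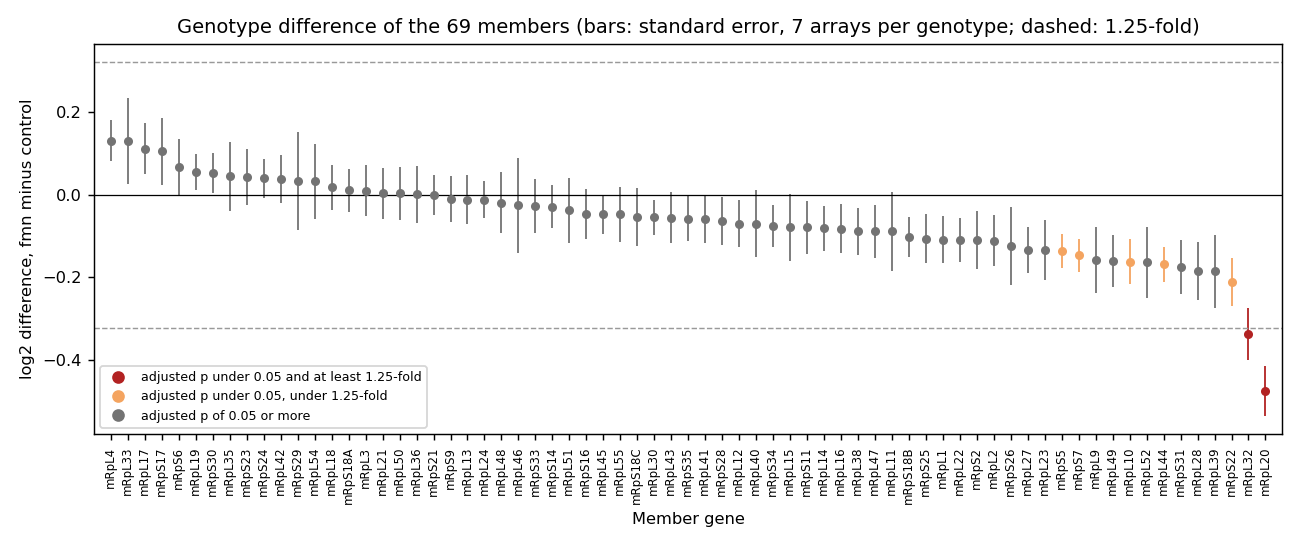
Log2 difference, fmn minus control, of each of the 69 members (points) with its standard error (bars, 7 arrays per genotype), ordered from highest to lowest, with dashed lines where one genotype is 25% above the other. mRpL20 (-0.48) and mRpL32 (-0.34) lie beyond the lower line and no member lies beyond the upper one.

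No member was higher in fmn by the test at any fold, where 7.27% of all probe sets were. The largest positive log2 differences were 0.13 ± 0.05 for mRpL4, which in bacteria lines the tunnel for the new chain, 0.13 ± 0.10 for mRpL33, 0.11 ± 0.06 for mRpL17, 0.11 ± 0.08 for mRpS17, 0.07 ± 0.07 for mRpS6 and 0.05 ± 0.04 for mRpL19. mRpL4 had a lowest, median and highest signal of 893, 960 and 1068 in fmn and 801, 891 and 949 in control and was higher in fmn at 6 of 7 times (adjusted p = 0.0817 by limma). Without fmn ZT 12 it passed at any fold (0.15, adjusted p = 0.0474). The adjusted p-values of the other 5 were 0.228 to 0.538. Without the 3 arrays carrying other-organ transcripts mRpL17 came to 0.20 and passed at any fold (adjusted p = 0.0472), the only member to do so (1.45%, against 4.49% of all probe sets), while mRpS6 came to 0.13 (adjusted p = 0.226) and mRpL19 to 0.09 (0.277).

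Marker sums of head cells differed between the genotypes beside these small shifts. The summed signal of 2 photoreceptor markers was 15204 to 18193 in fmn and 19512 to 20574 in control, and that of 3 glial markers 12091 to 14561 in fmn and 14861 to 16625 in control, with no overlap in either. The sum of 4 neuronal markers was above every control array on 6 of 7 fmn arrays, the exception being fmn ZT 12. Their part in the differences of the members was not tested.

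mRpL47 and mRpS11 have a second probe set. It differed from the first by 0.00 and 0.10 in its log2 difference between genotypes. For mRpS11 the second probe set had an amplitude of 0.25 with a peak at 17.2 h (adjusted p = 0.0497 by limma), while the brighter one was not called.

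Genes that work with the mitochondrial ribosome were read from lists by name. 2 further subunits known under other names, tko (the small subunit protein S12) and bonsai (S15), had log2 differences of 0.05 and -0.01 (adjusted p = 0.675 and 0.951 by limma) and peaks at 18.2 and 16.1 h. Of 12 mitochondrial translation factors, which start, lengthen and end the protein chains, 0 were changed in fmn. Of these factors, 10 (83.3%) peaked between ZT 16 and ZT 24, against 35.7% of all probe sets. The rhythm test called 2 of the 12 (16.7%, near the share of all probe sets), mEFTu2 (peak 21.1 h) and mRF1 (16.8 h), named after their values were seen. Of 14 mitochondrial aminoacyl-tRNA synthetases, which load amino acids onto tRNAs, 4 (28.6%) peaked in that window. The 1 changed synthetase, where 3.62% of all probe sets were lower, was LeuRS-m, for leucine. It averaged 304 in fmn and 392 in control (log2 difference -0.38 ± 0.06, adjusted p = 0.000539 by limma, and -0.40 without the 3 arrays carrying other-organ transcripts).

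Of 15 genes for protein import and folding, 0 were changed. Between ZT 16 and ZT 24, 11 of the 15 peaked (73.3%, against 35.7% of all probe sets). The rhythm test called 2 of the 15, blp and CG11267 (13.3%, against 14.3% of all probe sets). Of 5 genes for copying and reading mitochondrial DNA, 0 were changed and 3 (60%) peaked in the window. The rhythm test called 1 of the 5 (20%), PolrMT, the mitochondrial RNA polymerase. Of 56 nuclear genes for oxidative phosphorylation, whose complexes hold the products of mitochondrial translation, 0 were changed, 38 (67.9%) peaked in the window and 0 passed the rhythm test. Of 33 cytosolic ribosomal protein genes 0 were changed and 20 (60.6%) peaked in the window, with 0 rhythms called. The median log2 difference between genotypes was -0.06 for the mitochondrial ribosomal proteins, against -0.14 for oxidative phosphorylation and -0.17 for cytosolic ribosomal proteins. The median amplitude was 0.11 for the mitochondrial ribosomal proteins, against 0.04 for oxidative phosphorylation, 0.06 for cytosolic ribosomal proteins and 0.07 for translation factors.

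When the 3 arrays carrying other-organ transcripts were left out, 0 genes of these lists were called rhythmic, mEFTu2, mRF1, blp, CG11267 and PolrMT included. The peak fell between ZT 16 and ZT 24 for 57 of 69 mitochondrial ribosomal protein genes (82.6%), against 6 of 12 translation factors, 5 of 14 aminoacyl-tRNA synthetases, 9 of 15 import genes, 13 of 56 oxidative phosphorylation genes and 5 of 33 cytosolic ribosomal protein genes. Of all probe sets 34.1% peaked there. The late peak was thus counted in fewer translation factors, import genes, oxidative phosphorylation genes and cytosolic ribosomal protein genes once these arrays were left out. It was also counted in only 1 of the 2 genes tko and bonsai. It was counted in more aminoacyl-tRNA synthetases, 5 instead of 4, and in more genes for mitochondrial DNA, 4 instead of 3. The median log2 difference between genotypes was then 0.00 for the mitochondrial ribosomal proteins, against -0.11 for oxidative phosphorylation and -0.13 for cytosolic ribosomal proteins.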

How the data were processed

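RNA of fly heads was labeled by the authors and hybridized to Affymetrix Drosophila Genome 2.0 arrays. The deposited values are the MAS5 signal intensity of each probe set on a linear scale; the MAS5 version and target were not given in the sources used here. Genotype and time came from the sample labels. Of 18769 probe sets, 13647 named 1 gene, 402 several and 4720 none. Of the 402 probe sets with several genes, 2 named a member together with a second gene, and they were left out. The reference table held all 69 symbols. It listed 73 genes with an mRpL or mRpS symbol, so not every gene so named is a member here.

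Log2 intensities were centred on each array's 75th percentile. Of the filter in the study's methods only the signal part was applied, and MAS5 Present calls were not analysed here: probe sets below 100 on 7 or more of the 14 arrays were dropped, as were 183 control probe sets. The genotype difference was estimated over the remaining 8641 probe sets by linear models with moderated variances (limma 3.58.1, R 4.3.3) and Benjamini-Hochberg adjustment. Rhythms were tested as F tests of a 24 h cosine and sine. The methods were tested on simulated data. Members, lists, named genes and alternatives were chosen with earlier results of these data known. Named were changed members, the 6 largest differences either way, the 8 smallest rhythm p-values, members near DAT and changed list genes, and any other gene in the text was named after its values were seen. Same-time fmn and control arrays had correlated deviations (0.132 to 0.503 over 7 pairs), so time was used as a block in an alternative fit. Only 4 of the 7 fmn arrays correlated best with the control array of their own time. Depth does not apply to arrays; the 7 per genotype limit the precision.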

Additional observations from a re-analysis of the deposited data

How the results depend on the processing

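Settings are described by how many members they call. The 2 lower members became 1 with a pseudocount of 32 and 1 without the 3 arrays carrying other-organ transcripts, 7 with no fold threshold, and 1 to 2 when arrays were left out one at a time. With the time of day as a replicate block it stayed at 2, as it did with the methods' t-test after Benjamini-Hochberg adjustment. The median log2 difference of members, -0.06, became 0.000347 without the 3 arrays and was -0.08 to -0.04 leaving out single arrays. The 16 rhythmic members of the common fit (14.3% of all probe sets) became 8 with median centring (8.45%), 3 with no filter on low signals (3.08%), 3 without the 3 arrays (7.71%), 9 without the arrays of ZT 24 (12.9%), 6 at an adjusted p under 0.01 (7.58%), 1 with time as a factor (6.78%), and 8 to 21 leaving out single arrays. As a share of members these are 11.6%, 4.35%, 4.35%, 13.0%, 8.7% and 1.45%, so the larger share among members seen in the full fit was absent without the 3 arrays and with time as a factor, and nearly so without ZT 24 and at the stricter threshold. An alternative chosen after seeing the data, without the arrays of ZT 0, fmn ZT 4 and fmn ZT 8, gave 1 (6.53%). In control heads the 1 rhythmic member became 0 with median centring, with no filter, without the 3 arrays, without ZT 24 and without any single array, and 3 when both genotypes shared 1 estimate of the spread (added after seeing the data). In fmn heads 0 became 1 with median centring, 1 with the pseudocount and 4 with the shared spread, and stayed 0 leaving out single arrays. The daily range of the members' median became 0.52 in fmn and 0.35 in control with median centring, which moved all probe sets by 0.39 and 0.31. It was 0.14 in fmn without the 3 arrays, 0.17 to 0.26 in fmn and 0.11 to 0.16 in control leaving out single arrays. The causes were not tested. Members with a peak between ZT 16 and ZT 24 numbered 55 to 68 in all settings run.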
